A study of Bos taurus with 16 samples.

Results

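The genes described here build the kinetochore, the protein plate through which a chromosome holds the spindle, and the checkpoint that watches that hold. They were the loci whose name starts with CENP or is 1 of 28 further names of kinetochore, checkpoint, chromosomal passenger and shugoshin genes, and 45 of the 27393 loci of the bovine series met this rule. Of these, 18 carried a CENP name and 27 another name, and the remaining name of the rule, PMF1, matched no locus and was not analysed here. All 45 loci had reads in at least some samples and 29 had reads in every sample, 26241 reads in total.

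The series holds 16 samples of Bos taurus, each the RNA of a single oocyte matured in vivo or a single embryo developed in vivo, with 2 samples at each of 8 stages. The stages were mature oocytes (MII), embryos of 2, 4, 8 and 16 cells (2C, 4C, 8C and 16C), early morulae (EM, the 32-cell group of the study), compact morulae (CM) and blastocysts (BL). No treatment or genotype separated the groups, and the question was how transcripts change from stage to stage and across embryonic genome activation (EGA), which the study places between 4C and 8C. The 6 samples of MII, 2C and 4C are called before EGA below and the 10 samples of 8C, 16C, EM, CM and BL after EGA.

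A kinetochore starts from nucleosomes that hold the histone variant CENPA. A constitutive inner layer of CENP proteins sits on them and recruits the outer layer, whose NDC80 complex grips microtubules. Unattached kinetochores make an inhibitor of the anaphase-promoting complex, the chromosomal passenger complex loosens wrong attachments, and shugoshins guard centromeric cohesin until sister chromatids part. Oocytes store transcripts of this machinery for meiosis and for the first cleavages, which run before the embryonic genome is fully active.

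Levels are given as normalised read counts, the deposited values, which are reads on a locus divided by a size factor of the sample and not by gene length. Ratios and read shares of pairs of loci therefore depend on gene length, and only their change between samples is read. Other levels are not compared between genes. Depth was between 607672 and 3379426 reads per sample (median 1347534), and 3 reads, the count taken as the limit of detection, equal 1.09 to 5.40 normalised reads. Log2 values of samples of the same stage correlated across genes with r between 0.845 (8C) and 0.948. Since every sample is a whole oocyte or embryo, a change in the cells' number or kind and a change in RNA per cell cannot be told apart. Oocyte markers summed to between 2800 and 9823 CPM (reads on a locus scaled to a total of 1000000 reads in the sample) before EGA and to between 5.89 and 52.7 CPM in 9 of the samples after it, but to 1445 CPM in 8C replicate 2, against 22.3 CPM in 8C replicate 1. Of the 7 oocyte markers BMP15 was at 0 in all samples. The 7 cumulus cell markers summed to 79.3 to 322 CPM before EGA and at most 31.7 CPM after it, carried mostly by HAS2 and CYP19A1, with AMH at 0 throughout. The 3 oviduct and uterine markers summed to 75.2 CPM in 2C replicate 1, nearly all from OVGP1 (113 reads), and to at most 2.47 CPM in the other samples. Among blastocyst markers CDX2 had 1 read in all samples together, while the 5 listed markers summed to 1149 and 1288 CPM in BL and to at most 369 CPM elsewhere.

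RNA of the kinetochore and checkpoint loci moved in both directions across EGA. Of 39 loci with enough reads to be tested, 14 fell and 6 rose (limma on log2(normalised read count + 1), adjusted p under 0.05 over 6910 loci), and 19 did not pass. Among all loci tested 29.9% fell and 36.9% rose, against 35.9% and 15.4% of the kinetochore loci. Their median log2 change was -0.39, beside 0.23 for all loci tested. Scaling by total reads raised the median of all loci to 0.66 and gave 11 falls and 10 rises, where 1595 of all 6910 loci fell and 2872 rose. TMM scaling lowered it to 0.09 and gave 15 falls and 6 rises, where 2189 of all loci fell and 2384 rose. Neither scaling turned the direction of any locus that passed. Under total reads CASC5, KNTC1 and TTK no longer passed as lower, and BUB3, CENPA, NUF2 and OIP5 passed as higher.

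**Figure D1:**
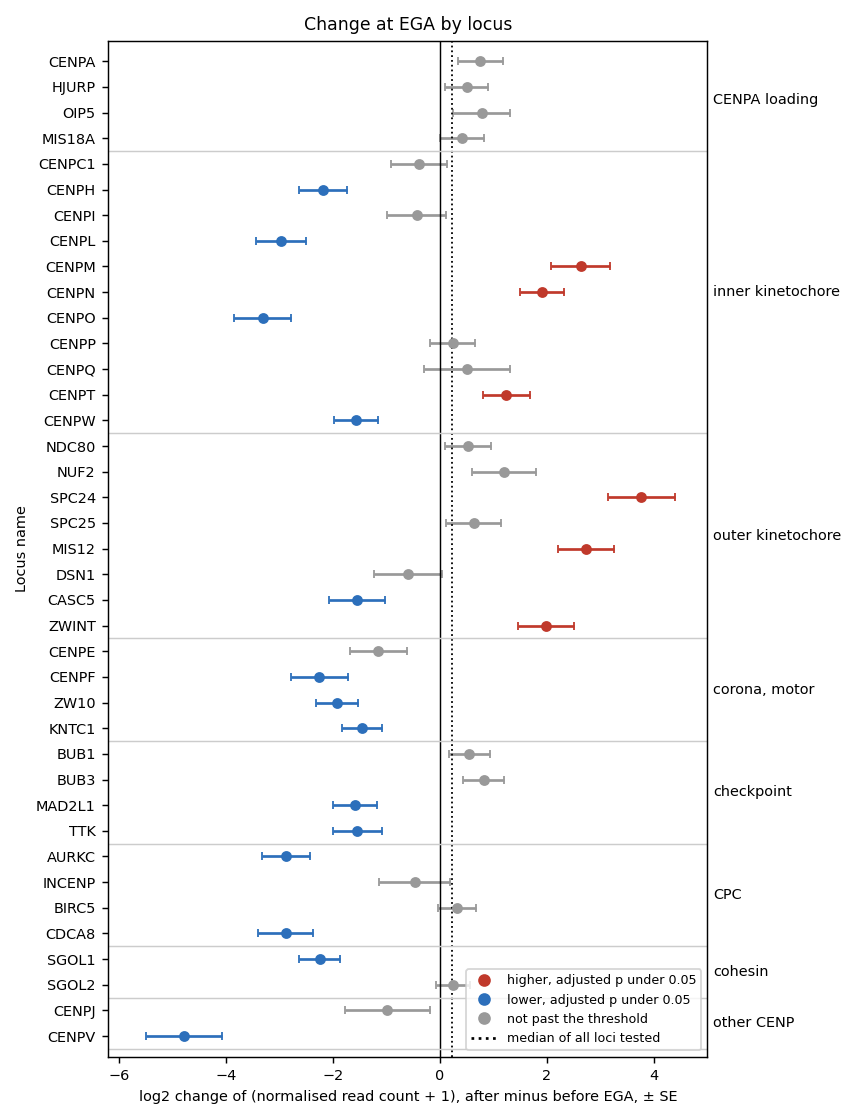
Log2 change (after minus before EGA, on log2(normalised read count + 1)) of the 39 tested loci, ordered by role, with bars of 1 SE; blue loci fell, red loci rose and grey loci did not pass the threshold. The dotted line is the median of all loci tested (0.23); falls run from -4.79 for CENPV to -1.46 for KNTC1, and rises from 1.24 for CENPT to 3.76 for SPC24.

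Without both 8C samples 5 loci rose and 14 fell of the 38 that could then be tested, SPC24 being the locus no longer tested. Of all 6712 loci then tested, 2407 rose and 2026 fell. Without 8C replicate 2 alone 6 rose and 15 fell, beside 2549 and 2059 of all 6856 loci. Of the 14 that fell, 10 had a higher normalised count in 8C replicate 2, the sample with the higher oocyte markers, than in replicate 1. In 5 of these 14, 8C replicate 2 was above every other sample after EGA. Of the 6 that rose, 4 were also higher in replicate 2 than in replicate 1, and 1 was above every other sample after EGA. The same shares over all loci were not computed. The part of the oocyte and cumulus markers in these changes was not tested. Of the 39 loci tested, 6 were lower after EGA with no overlap between the periods (AURKC, SGOL1, CENPL, ZW10, CENPO and KNTC1), or 15.4%, near the 14.1% of all loci tested. Higher without overlap were 0 of the 39, beside 16% of all loci tested. Of the loci that fell, 9 had their highest stage mean in MII.

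Over the 8 stages, 24 of 41 tested loci differed (limma, moderated F, adjusted p under 0.05), beside 66.7% of all loci tested. The summed normalised reads of the 45 loci were 2432 and 2299 in MII and 863 and 862 in BL. In CPM, which divides by all reads of a sample, the sum was 1168 and 947 in MII and 836 and 798 in BL, and the highest stage mean was that of EM (1173 and 1635), although 1 EM sample lay below both 2C samples (1233 and 1461). The scale also moved the peak of single genes: 12 loci had their highest mean in MII and 9 in EM by normalised reads, but 5 and 19 by CPM.

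**Figure D2:**
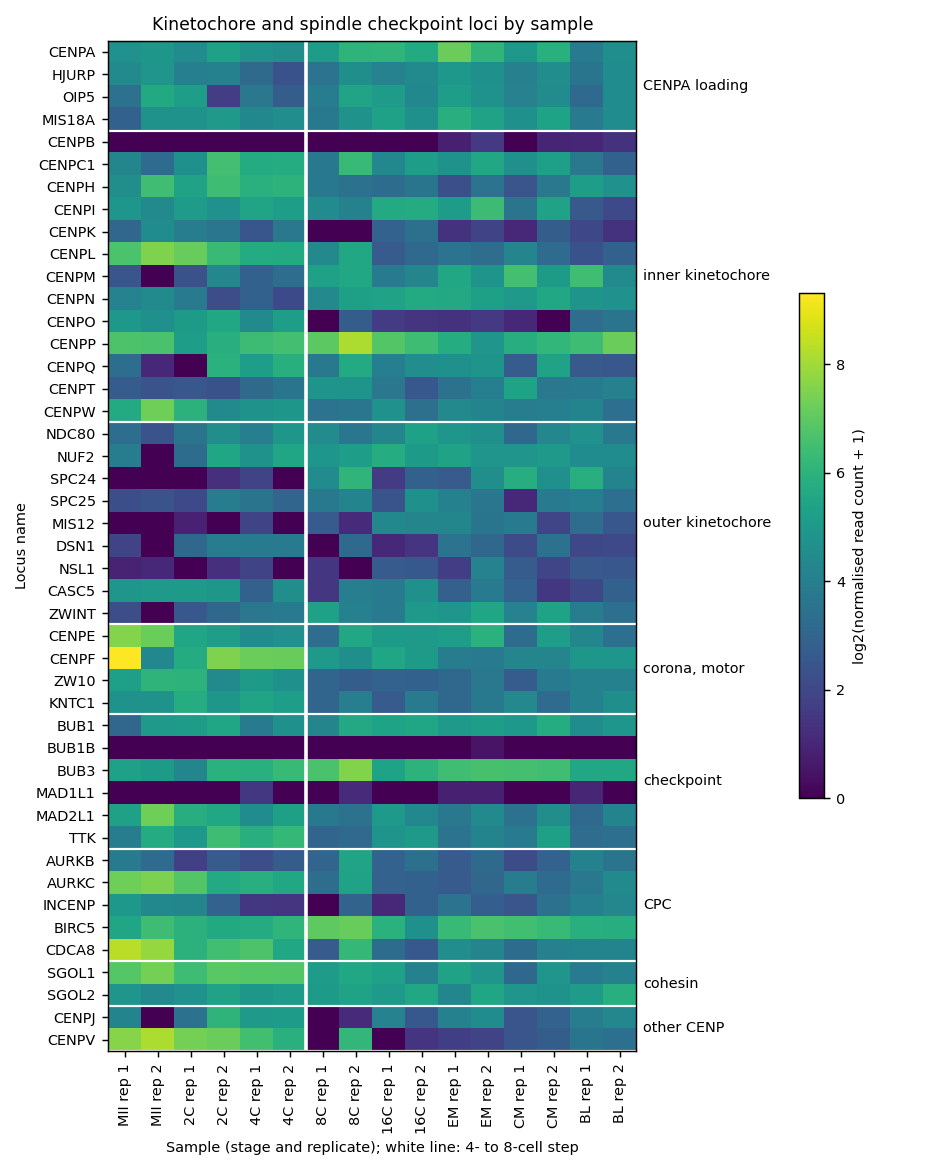
Heat map of log2(normalised read count + 1) for the 45 loci (rows, grouped by role) in the 16 samples (columns), with a white line between 4C and 8C. CENPV, CENPL, AURKC and SGOL1 are brighter in all samples before the line than in those after it apart from CENPV in 8C replicate 2, SPC24 and MIS12 are dark before it, and BUB1B, CENPB and MAD1L1 are dark in nearly all samples.

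The loci that load and mark the centromeric nucleosome did not pass between the periods, where 29.9% of all loci tested fell and 36.9% rose. CENPA itself, its chaperone HJURP, and OIP5 and MIS18A, which prime the centromere for loading, all had a positive log2 change, between 0.42 (MIS18A) and 0.78 (OIP5), and none passed (limma adjusted p between 0.118 and 0.375). CENPA did pass as higher by edgeR and DESeq2 on the recovered reads (adjusted p = 0.0344 and 0.0299). CENPA (XLOC_007858) had 24.9 and 29.8 normalised reads in MII, 21.4 and 39.4 in 2C, 25.8 and 23.6 in 4C, 34.2 and 65.4 in 8C, 67.5 and 50.1 in 16C, 145 and 67.6 in EM, 29.9 and 59.1 in CM and 13.2 and 23.8 in BL. It was the locus of this group that differed over the stages (limma adjusted p = 0.0454), and the largest value belonged to 1 early morula. That call was lost with the replicate block (limma adjusted p = 0.0512), with no filter (0.0637) and when any of 12 samples was left out, with an adjusted p of up to 0.194 without EM replicate 1. Summed over the 4 loci, normalised reads were 212 ± 76.0 in EM (SD, n = 2) and 68.0 ± 31.6 in BL.

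Of 13 inner kinetochore loci 4 fell (CENPO, CENPL, CENPH and CENPW), 3 rose (CENPM, CENPN and CENPT), 4 did not pass and 2 (CENPB and CENPK) had too few reads for this test. These counts among 11 loci tested are near the shares of all loci, 29.9% that fell and 36.9% that rose. CENPO, a subunit that helps recruit the kinase PLK1, showed the largest fall.

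CENPO (XLOC_007871) had 30.5 and 24.5 normalised reads in MII, 32.4 and 47.4 in 2C, 21.2 and 34.9 in 4C, 0 and 5.73 in 8C, 2.18 and 1.62 in 16C, 1.55 and 1.95 in EM, 1.11 and 0 in CM and 9.13 and 11.1 in BL. Every sample before EGA was above every sample after it, and the later low was followed by higher values in both blastocysts (log2 change -3.32 ± 0.53 (SE), limma adjusted p = 1.41e-05). CENPL (XLOC_019887), which reads the CENPA nucleosome together with CENPN, had 101 and 181 in MII, 139 and 79.2 in 2C, 52.6 and 50.4 in 4C, 19.8 and 47.0 in 8C, 5.44 and 8.09 in 16C, 10.8 and 8.99 in EM, 17.7 and 8.44 in CM and 4.06 and 6.34 in BL. The periods did not overlap, although 8C replicate 2 at 47.0 came close to the 50.4 of a 4C embryo (log2 change -2.97 ± 0.46, limma adjusted p = 9.9e-06).

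CENPH (XLOC_033617), part of a subcomplex with CENPI, CENPK and CENPM, had 23.1 and 86.2 in MII, 40.4 and 83.9 in 2C, 59.0 and 64.2 in 4C, 12.6 and 10.3 in 8C, 8.71 and 11.3 in 16C, 3.86 and 10.6 in EM, 4.43 and 12.2 in CM and 36.5 and 25.4 in BL. Blastocysts were above the other samples after EGA and overlapped the lowest oocyte (log2 change -2.18 ± 0.45, limma adjusted p = 0.000236). Its partner CENPM (XLOC_057770) went the other way, with 4.62 and 0 in MII, 3.96 and 19.0 in 2C, 6.46 and 8.93 in 4C, 39.6 and 45.9 in 8C, 13.1 and 17.8 in 16C, 45.6 and 27.4 in EM, 92.0 and 32.8 in CM and 87.2 and 20.6 in BL. Most samples after EGA were higher, and the overlap came from 2C replicate 2 and the 16C embryos (log2 change 2.63 ± 0.55, limma adjusted p = 0.000285).

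The other inner kinetochore changes were smaller. CENPN rose from a median of 9.95 normalised reads (3.25 to 20.2) before EGA to 37.9 (19.8 to 50.1) after it (log2 change 1.91 ± 0.41, limma adjusted p = 0.000336). Both oocytes lay above the 2C and 4C embryos, and 1 oocyte exceeded the lowest 8C value. CENPT, a histone-fold protein that ties the inner plate to the NDC80 complex, had a median of 5.14 (4.01 to 11.4) before and 14.2 (4.85 to 41.0) after (1.24 ± 0.43, limma adjusted p = 0.0160), with a 16C and an EM sample inside the earlier range. Its histone-fold partner CENPW had a median of 40.0 (20.4 to 153) before and 14.7 (9.51 to 25.0) after (-1.57 ± 0.41, limma adjusted p = 0.00218).

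CENPC1, CENPI, CENPP and CENPQ did not pass between periods, with log2 changes between -0.44 and 0.51 (limma adjusted p between 0.497 and 0.63). CENPI varied between later stages: it had 50.1 and 51.7 normalised reads in 16C but 5.07 and 3.17 in BL and differed over the stages (limma adjusted p = 0.00719, and 0.0683 without BL replicate 2). CENPB, which binds centromeric satellite DNA, was listed at 0 in all samples through 16C and at no more than 1.95 later, at or near the limit of detection.

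Of 9 outer kinetochore loci SPC24, MIS12 and ZWINT rose, CASC5 fell, 4 did not pass and 1 had too few reads. The 3 rises among 8 loci tested are near the 36.9% of all loci. SPC24 and MIS12 had enough reads for the test only through samples after EGA, so for them only a rise could be called.

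SPC24 (XLOC_063713), which joins SPC25 at the inner end of the NDC80 complex, had 0 and 0 normalised reads in MII, 0 and 1.46 in 2C, 2.77 and 0 in 4C, 21.6 and 67.7 in 8C, 2.18 and 6.47 in 16C, 5.41 and 23.1 in EM, 54.3 and 24.4 in CM and 56.8 and 17.4 in BL. The level before EGA was at or near the limit of detection in all 6 samples and reached 67.7 in 8C, and 1 of the 16C embryos lay within the earlier range (log2 change 3.76 ± 0.63, limma adjusted p = 2.15e-05).

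MIS12 (XLOC_027815), which names the complex that links both plates, had 0 and 0 in MII, 0.791 and 0 in 2C, 2.77 and 0 in 4C, 5.40 and 1.15 in 8C, 19.6 and 17.8 in 16C, 18.5 and 11.3 in EM, 13.3 and 2.81 in CM and 9.13 and 4.75 in BL. It was highest in 16C and EM, later than SPC24, and was within the earlier range in 8C replicate 2 (log2 change 2.73 ± 0.53, limma adjusted p = 0.000116). Both changes depend on the pseudocount, since the earlier values are so low: with 5 in place of 1 they were 2.18 for SPC24 and 1.34 for MIS12, and edgeR on the recovered reads gave 5.05 and 4.14.

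ZWINT (XLOC_044561), an adaptor between the outer plate and the corona, had 3.69 and 0 in MII, 4.75 and 7.66 in 2C, 12.0 and 13.0 in 4C, 39.6 and 16.1 in 8C, 13.1 and 30.7 in 16C, 27.8 and 45.0 in EM, 16.6 and 40.3 in CM and 14.2 and 9.51 in BL. Apart from 1 blastocyst the later samples were above all earlier ones (log2 change 1.98 ± 0.53, limma adjusted p = 0.00249). CASC5 (XLOC_003649), also called KNL1, the scaffold on which BUB proteins dock, was the outer locus that fell, with 27.7 and 30.8 in MII, 32.4 and 29.6 in 2C, 6.46 and 23.6 in 4C, 1.80 and 14.9 in 8C, 13.1 and 24.3 in 16C, 6.18 and 13.3 in EM, 6.65 and 1.88 in CM and 3.04 and 6.34 in BL. A 4C embryo was as low as the later samples and a 16C embryo as high as the other 4C embryo (log2 change -1.56 ± 0.52, limma adjusted p = 0.0121).

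NDC80, NUF2, SPC25 and DSN1 did not pass, with log2 changes of 0.52, 1.19, 0.63 and -0.59 (limma adjusted p between 0.0853 and 0.421), and NSL1 had too few reads. Summed over the 9 outer loci, normalised reads were 51.1 ± 15.2 in MII and 169 ± 17.6 in EM (SD, n = 2).

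Of 4 corona and motor loci CENPF, ZW10 and KNTC1 fell, where 29.9% of all loci tested fell. CENPE, the kinesin that carries chromosomes to the spindle equator, just missed (log2 change -1.15 ± 0.53, limma adjusted p = 0.0614). CENPE passed with TMM scaling, edgeR and DESeq2 (adjusted p = 0.0421, 0.0427 and 0.0176). It was high in both oocytes, at 192 and 143 normalised reads, and at most 60.6 in any embryo.

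CENPF (XLOC_019935), a large coiled-coil protein of the corona, had 634 and 19.1 in MII, 52.2 and 182 in 2C, 143 and 142 in 4C, 30.6 and 24.1 in 8C, 43.5 and 32.3 in 16C, 13.9 and 13.3 in EM, 17.7 and 17.8 in CM and 29.4 and 28.5 in BL. The oocytes were its highest and its lowest sample before EGA, and the lowest lay among the later samples (log2 change -2.25 ± 0.53, limma adjusted p = 0.000766). ZW10 (XLOC_017423), which with KNTC1 and ZWILCH brings dynein and MAD proteins to kinetochores, had 36.9 and 65.9 in MII, 63.3 and 20.4 in 2C, 32.3 and 24.4 in 4C, 7.21 and 5.73 in 8C, 6.53 and 6.47 in 16C, 7.73 and 12.1 in EM, 5.54 and 13.1 in CM and 16.2 and 15.8 in BL. Its periods did not overlap (log2 change -1.93 ± 0.39, limma adjusted p = 0.000203).

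KNTC1 (XLOC_021962) had 25.8 and 26.6 in MII, 53.0 and 29.2 in 2C, 42.4 and 34.9 in 4C, 7.21 and 14.9 in 8C, 5.44 and 12.9 in 16C, 7.73 and 12.5 in EM, 19.9 and 8.44 in CM and 16.2 and 23.8 in BL. Its values before EGA were all above those after it, by a margin of 25.8 against 23.8 (log2 change -1.46 ± 0.38, limma adjusted p = 0.00192). ZWILCH, the remaining subunit of that complex and not among the 45 loci, rose (log2 change 1.33 ± 0.42, limma adjusted p = 0.00823). The 4 corona loci summed to 572 ± 449 in MII, where CENPF of 1 oocyte dominated, and to 78.9 ± 1.77 in BL (SD, n = 2).

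Of 6 checkpoint loci MAD2L1 and TTK fell, BUB1 and BUB3 did not pass and 2 had too few reads. Beside these 2 falls among 4 loci tested, 29.9% of all loci tested fell. MAD2L1 (XLOC_060073), the MAD2 protein that is turned into the anaphase inhibitor at unattached kinetochores, had 38.8 and 151 normalised reads in MII, 55.4 and 45.3 in 2C, 22.1 and 38.2 in 4C, 12.6 and 10.3 in 8C, 31.6 and 19.4 in 16C, 12.4 and 20.7 in EM, 9.97 and 23.5 in CM and 8.12 and 17.4 in BL. The 4C embryo at 22.1 overlapped the later samples (log2 change -1.59 ± 0.41, limma adjusted p = 0.00186).

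TTK (XLOC_070097), the MPS1 kinase that starts the signal, had 13.8 and 52.1 in MII, 30.1 and 83.6 in 2C, 58.1 and 72.3 in 4C, 7.21 and 8.03 in 8C, 27.2 and 30.7 in 16C, 10.8 and 17.2 in EM, 13.3 and 38.5 in CM and 9.13 and 9.51 in BL. It was low in both 8C embryos and partly back in 16C, and 1 oocyte was as low as the later samples (log2 change -1.55 ± 0.46, limma adjusted p = 0.00543).

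BUB1 and BUB3, which form the docking arm of the checkpoint, had positive log2 changes of 0.55 and 0.82 that did not pass (limma adjusted p = 0.220 and 0.0630). BUB3 was highest in 8C, at 99.1 and 187. MAD1L1 had no more than 1.84 in any sample and BUB1B had a single read, in EM replicate 2, so neither was tested. These low values hold for the loci that carry the names BUB1B and MAD1L1 in the table, and 3 reads, the limit of detection, equal up to 5.40 normalised reads in a sample (8C replicate 1).

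Of 5 loci of the chromosomal passenger complex AURKC and CDCA8 fell, INCENP and BIRC5 did not pass and AURKB had too few reads for the test between periods. That is 2 falls among 4 loci tested, where 29.9% of all loci tested fell. AURKC (XLOC_024411), the Aurora kinase known mainly from germ cells, had 153 and 178 normalised reads in MII, 112 and 51.1 in 2C, 56.3 and 45.5 in 4C, 9.01 and 40.1 in 8C, 6.53 and 6.47 in 16C, 5.41 and 7.43 in EM, 14.4 and 8.44 in CM and 12.2 and 20.6 in BL. The periods did not overlap, and 8C replicate 2 was nearest to the earlier samples (log2 change -2.88 ± 0.45, limma adjusted p = 9.56e-06).

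AURKB (XLOC_027868), the Aurora kinase of the same complex in dividing body cells, had 12.9 and 8.51 in MII, 2.37 and 5.47 in 2C, 3.69 and 5.69 in 4C, 7.21 and 42.4 in 8C, 6.53 and 9.70 in 16C, 5.41 and 8.21 in EM, 3.32 and 6.57 in CM and 16.2 and 11.1 in BL. Apart from 8C replicate 2, it stayed between 2.37 and 16.2, and it did not pass over the stages (limma adjusted p = 0.279, and 0.0435 without 8C replicate 1).

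The log2 ratio of AURKC to AURKB, each normalised count increased by 1, was 3.70 ± 0.84 before EGA (SD, n = 6) and 0.22 ± 0.68 after it (SD, n = 10). All 6 earlier samples (2.80 to 5.07) lay above all 10 later ones (-0.52 to 1.83), a difference of -3.48. An exact two-sided permutation test over 8008 splits gave p = 0.0001249 (adjusted over 2 ratios p = 0.0001249), the smallest the splits can give. The splits moved single samples, while a period is set by the stage. The p-value thus takes the 2 samples of a stage as independent and has no separate term for stages. Of the reads on both loci, AURKC held between 88.9% (4C replicate 2, exact Clopper-Pearson 95% interval 78.4 to 95.4%) and 97.9% (2C replicate 1, 94.1 to 99.6%) before EGA. Afterwards it held between 40% (16C replicate 2, 12.2 to 73.8%) and 81.25% (CM replicate 1, 54.4 to 96.0%), on as few as 9 reads in a sample, and these intervals cover counting error only. Aurora kinases are similar in sequence and no source used here says how reads matching more than 1 locus were counted, so the split between them is uncertain.

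CDCA8 (XLOC_051193), or borealin, which helps the complex bind the centromere, had 326 and 227 in MII, 62.5 and 89.0 in 2C, 103 and 45.5 in 4C, 5.40 and 73.4 in 8C, 8.71 and 4.85 in 16C, 22.4 and 18.0 in EM, 8.87 and 15.9 in CM and 17.2 and 17.4 in BL. All samples after EGA but 8C replicate 2 were below all samples before it (log2 change -2.89 ± 0.52, limma adjusted p = 5.43e-05). BIRC5, or survivin, did not pass (0.32 ± 0.35, limma adjusted p = 0.427) and had 128 and 141 in 8C. INCENP, the scaffold, did not pass either (-0.47 ± 0.67, limma adjusted p = 0.539), though its values ran from 30.5 and 19.1 in MII through 1.84 and 1.62 in 4C to 15.2 and 19.0 in BL.

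Of the shugoshins, SGOL1 fell and SGOL2 did not pass, where 29.9% of all loci tested fell. SGOL1 (XLOC_001001), known for guarding cohesin in mitosis, had 114 and 163 normalised reads in MII, 84.7 and 122 in 2C, 115 and 113 in 4C, 34.2 and 45.9 in 8C, 39.2 and 16.2 in 16C, 40.2 and 28.2 in EM, 7.76 and 28.1 in CM and 13.2 and 15.8 in BL. The lowest earlier sample, at 84.7, was well above the highest later one (log2 change -2.25 ± 0.38, limma adjusted p = 2.49e-05).

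SGOL2 (XLOC_030122), known for guarding cohesin in meiosis, had 27.7 and 20.2 in MII, 25.3 and 40.1 in 2C, 29.5 and 34.1 in 4C, 32.4 and 40.1 in 8C, 31.6 and 46.9 in 16C, 18.5 and 44.6 in EM, 27.7 and 26.3 in CM and 33.5 and 57.0 in BL. Its periods overlapped broadly and it did not pass (0.24 ± 0.32, limma adjusted p = 0.516). The log2 ratio of SGOL2 to SGOL1 went from -1.98 ± 0.50 before EGA (SD, n = 6) to 0.52 ± 1.00 after it (SD, n = 10). The periods did not overlap (difference 2.49, exact two-sided permutation test, p = 0.0001249, adjusted p = 0.0001249, again the smallest possible). Here too the samples of a stage were taken as independent.

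The largest change across EGA among the 39 loci tested was that of CENPV (XLOC_027224), a protein described at centromeres and the central spindle. It had 196 and 283 normalised reads in MII, 165 and 143 in 2C, 89.5 and 59.3 in 4C, 0 and 71.1 in 8C, 0 and 1.62 in 16C, 2.32 and 2.74 in EM, 4.43 and 5.63 in CM and 11.2 and 9.51 in BL. It was at 0 in 1 of the 8C embryos, while 8C replicate 2 was within the 4C range (log2 change -4.79 ± 0.71, limma adjusted p = 4.85e-06). CENPJ, a centriole protein despite its name, did not pass (-0.98 ± 0.80, limma adjusted p = 0.283).

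In several pairs of proteins that work side by side in the kinetochore, the RNA of a member rose while that of its partner fell or did not pass. These pairs were picked after their values were seen and are described with no test. The log2 ratio of CENPN to CENPL had a median of -3.19 before EGA (-4.11 to -2.53) and 2.02 after it (-0.31 to 2.68). For CENPM to CENPH the medians were -2.86 (-6.45 to -2.09) and 1.33 (-0.29 to 4.10). For CENPT to CENPW they were -2.54 (-4.88 to -1.29) and -0.22 (-1.005 to 1.45). In the NDC80 complex SPC24 to SPC25 went from -2.31 (-3.06 to -1.68) to 0.83 (-1.76 to 4.71), with 16C replicate 2 lowest and EM replicate 1 next. In the MIS12 complex MIS12 to DSN1 had medians of -2.15 (-3.93 to 0) and 1.02 (-2.07 to 3.30), and its periods overlapped widely.

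**Figure D3:**
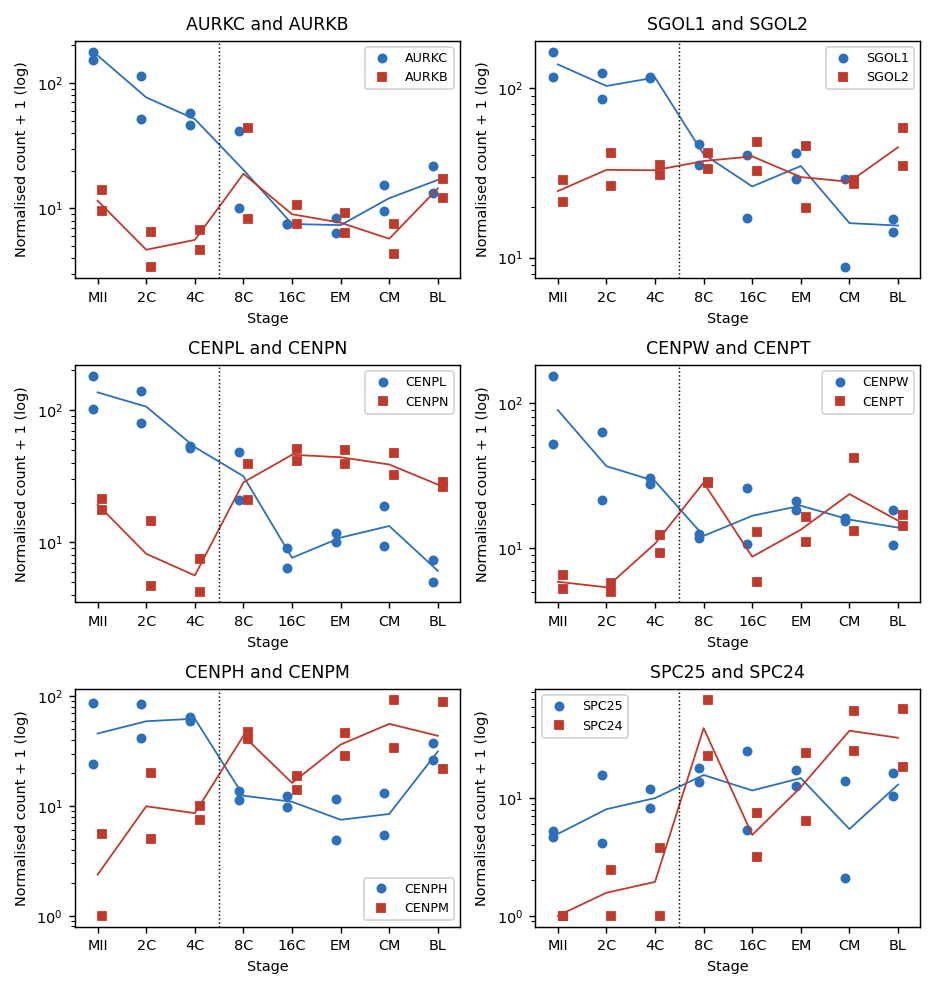
Normalised read count + 1 (log axis) of the partners of 6 pairs at each stage; points are samples, lines join stage means on the log scale, and the dotted line marks EGA. AURKC, SGOL1, CENPL, CENPW and CENPH descend across the line while CENPN, CENPT, CENPM and SPC24 rise, and SGOL2 (20.2 to 40.1 before EGA, 18.5 to 57.0 after it) and AURKB (2.37 to 12.9 and 3.32 to 42.4) overlap between the periods.

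**Figure D4:**
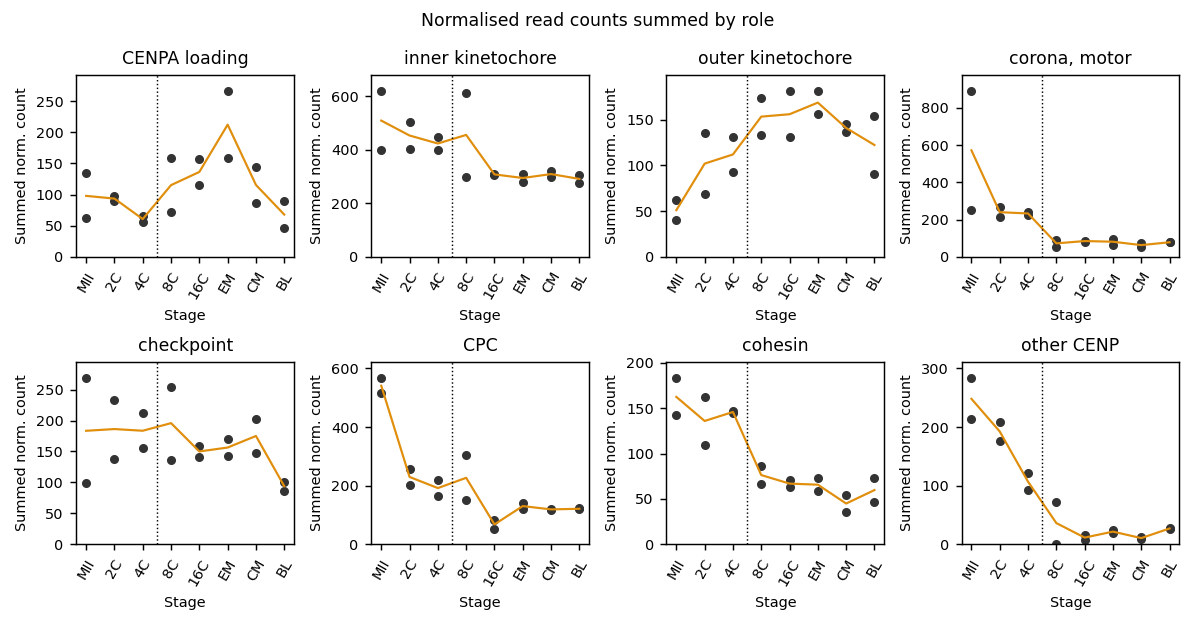
Summed normalised read count of each role (linear axis from 0) by stage; points are samples and lines join the means of 2 samples. Corona, passenger, cohesin and other CENP loci are highest in MII, while CENPA loading and outer kinetochore loci are highest in EM, at 212 and 169. In CPM cohesin and other CENP loci were instead highest in 2C, at 112 and 159 against 71.8 and 109 in MII.

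At the step from 4C to 8C, 2 of 41 tested loci rose and 6 fell, beside 17.7% and 19.1% of all loci tested (limma, 9670 loci). SPC24 rose by 4.34 ± 0.99 on the log2 scale (limma adjusted p = 0.00374) and CENPN by 2.34 ± 0.66 (limma adjusted p = 0.0130). CENPH, CENPO, TTK and ZW10 fell with log2 changes of -2.33, -3.44, -2.93 and -1.97 (limma adjusted p = 0.0235, 0.00652, 0.00670 and 0.0370). ZW10 did not pass by edgeR or DESeq2 (adjusted p = 0.0769 and 0.0619), and CENPH and ZW10 each lost their call whichever of the 4 embryos was left out. In a fit of only these 2 stages CENPN, CENPO and ZW10 did not pass (limma adjusted p = 0.0675, 0.0698 and 0.0732). In that fit CENPM passed as higher and CENPF as lower (limma adjusted p = 0.0482 and 0.0235). CENPK also fell, from 4.61 and 12.2 normalised reads to 0 and 0 (-3.10 ± 0.83, limma adjusted p = 0.00927), and CENPJ, from 31.4 and 33.3 to 0 and 1.15 (-4.51 ± 1.15, limma adjusted p = 0.00726). Without 8C replicate 2 the log2 changes of AURKC, CDCA8, CENPV, DSN1 and KNTC1 were -2.37, -3.44, -6.21, -3.89 and -2.27. Without 8C replicate 1 that of AURKB was 2.96. Each of these fits leaves 1 embryo at 8C and takes its spread from other stages, so no p-value is given. With 2 embryos a stage, the calls at this step depended on single embryos. CENPN, CENPO and CENPJ lost their call for 2 of the 4 embryos left out, and CENPK, SPC24 and TTK for 1.

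At the step from MII to 2C, through fertilization and the first cleavage, 0 of 41 loci passed by limma, edgeR or DESeq2, where 1.2% of all loci tested rose and 0.217% fell by limma. At an unadjusted p under 0.05 there were 7, near the 16.4% of all loci tested, of which CENPC1, CENPM, NUF2, DSN1 and CENPJ were higher in 2C and CENPE and CDCA8 lower. Oocyte replicates of some loci differed widely: NUF2 was 13.8 and 0, CENPJ 17.5 and 0 and CENPQ 9.23 and 1.06 in MII. The median absolute log2 difference between replicates was 0.73 in MII (34 loci) and 0.84 in 2C (39 loci). These were loci with at least 10 reads in a replicate. Without MII replicate 1, which leaves 1 oocyte with 0 for both genes, the log2 changes of NUF2 and CENPJ were 4.37 and 4.78.

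From compact morula to blastocyst, 0 of 41 loci passed by limma, edgeR or DESeq2, beside 2.92% of all loci tested that rose and 1.5% that fell by limma. At an unadjusted p under 0.05 there were 3, where 18.1% of all loci tested had such a p. CENPH and CENPO were higher in BL, with log2 changes of 1.89 and 2.93 (limma adjusted p = 0.185 and 0.0674), and CENPI was lower (-2.15, limma adjusted p = 0.0884). Without CM replicate 1, which leaves 1 compact morula, the log2 change of CENPI was -3.04.

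Genes that work with the kinetochore were read from 3 further lists. Of 15 genes of microtubule attachment and motors 13 were tested across EGA, and 7 rose and 4 fell, where 36.9% of all loci tested rose and 29.9% fell. The largest rises were SKA2, a subunit of the complex that tracks depolymerizing microtubules (log2 change 2.95, limma adjusted p = 5.63e-05), and PAFAH1B1, or LIS1, a dynein regulator (2.26, limma adjusted p = 4.43e-05). KIF18A, the kinesin that damps chromosome movement, fell from 81.2 to 299.95 normalised reads before EGA to at most 12.9 after it (-4.84, limma adjusted p = 7.17e-08), and MAPRE1, the plus-end protein EB1, fell as well (-2.99, limma adjusted p = 5.92e-07).

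Of 22 genes of the anaphase-promoting complex and its regulators 18 were tested, and 4 rose and 5 fell, against the same shares of all loci. UBE2C, the complex's priming ubiquitin enzyme, rose (log2 change 2.23, limma adjusted p = 4.64e-05), as did the subunit ANAPC5 (1.51, limma adjusted p = 0.00667). PTTG1, or securin, which holds separase until anaphase, fell (-3.20, limma adjusted p = 0.000435), as did MAD2L1BP, which helps switch the checkpoint off (-1.58, limma adjusted p = 0.00194).

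Of 17 mitotic kinases and genes of the spindle and midzone 16 were tested, of which 8 fell and 8 did not pass, where 29.9% of all loci tested fell. KIF20B and AURKA, the spindle pole Aurora kinase, had the largest falls (-3.20 and -3.02, limma adjusted p = 9.13e-06 and 9.55e-06). AURKA had 204 normalised reads in 8C replicate 2 and 50.4 in replicate 1.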

How the data were processed

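RNA of single oocytes and embryos was amplified in 2 rounds and sequenced on the SOLiD platform by the authors, whose processing notes name cutadapt, FastQC, TopHat, Cufflinks and HTSeq; versions, genome build, strand setting and the rule for reads with several hits are not given in the sources used here. The deposited values are a signal per locus, reads divided by a size factor of the sample; in every sample 100% of the values above 0 were multiples of its lowest value by a whole number (tolerance 0.01), which gave back the reads. The kinetochore loci and the other lists were chosen with earlier results of these data known.

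Tests used limma 3.58.1 (R 4.3.3; empirical Bayes with trend) on log2(value + 1), with Benjamini-Hochberg adjustment at 0.05 over all loci kept by filterByExpr on the recovered reads: 9670 in the model of 8 stages, 6910 in the model of 2 periods. The 2 ratios used exact permutation tests (scipy 1.17.1). Alternatives were TMM and total reads scaling, pseudocounts of 0.5 and 5, no filter, edgeR 4.0.16 and DESeq2 1.42.0 on those reads, a block for the replicate number, other sets of samples, and each sample left out. Scripts were tested on simulated data. On recovered reads edgeR called 4424 loci across EGA.

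In each role up to 4 loci past the threshold across EGA, those with the largest changes, were given in every sample, with both Aurora kinases and both shugoshins. Of each further list the 2 largest rises and falls are named; other loci were named after their values were seen. Labels do not say whether samples of a stage came from separate animals, so p-values measure the spread between these samples. Between periods, samples of several stages served as replicates of a period, so differences between stages are part of that spread. Depth sets a limit of 0.888 to 4.94 CPM for 3 reads, counting error only.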

Additional observations from a re-analysis of the deposited data

Results flagged for a closer look

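In 3 of 82 groups of samples tested (6 before and 10 after EGA, for each locus with enough reads and for both ratios) the lowest sample stood apart from the others by Dixon's criterion, where chance gives about 1 in 20. MIS18A in MII replicate 1 had 6.46 normalised reads, against 19.4 to 31.4 in the other samples before EGA (gap of 0.684 of the range). CASC5 in 4C replicate 1 had 6.46, against 23.6 to 32.4 in the others (gap of 0.794). The log2 ratio of SGOL2 to SGOL1 was -2.95 in MII replicate 2, against -2.01 to -1.58 in the others (gap of 0.686).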

How the results depend on the processing

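Across EGA the 14 falls numbered 11 with total reads scaling and the 6 rises 10. Over all loci tested the falls then went from 2069 to 1595 and the rises from 2550 to 2872. Under the remaining settings there were 14 to 16 falls and 5 to 9 rises. No locus that passed changed direction under any setting in which it was tested. MIS12 was tested in 10 of the 16 fits with a single sample left out, and SPC24 was not tested without both 8C samples. The replicate numbers gave no pairing: deviations of samples with the same number correlated between -0.257 and 0.134 over 28 pairs of stages, with 1 pair over 0.1, and with the replicate block 6 loci rose and 14 fell. The block gave differences of -3.48 (AURKC to AURKB) and 2.49 (SGOL2 to SGOL1), and leaving out single samples gave -3.66 to -3.21 and 2.30 to 2.67. Leaving out single samples gave 16 to 28 loci that differed over the stages. For 8C against 4C it gave 0 to 3 rises (0 without 4C replicate 2) and 1 to 9 falls (3 without 4C replicate 1, 1 without 4C replicate 2, 2 without 8C replicate 1), for 2C against MII 0 to 2 rises (2 without MII replicate 1), and for BL against CM 0 to 1 falls (1 without CM replicate 1). In each of these fits the stage that lost a sample held 1, and the spread came from the other stages. The causes were not tested. BUB1B, MAD1L1, CENPB and NSL1 were left out of the tests by the filter on low values. Without it 6 loci rose and 15 fell of 45 across EGA, beside 3372 and 3703 of all 18318 loci.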
